A study of Homo sapiens with 27 samples.

Results

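The comparison of 92.1 cells after 3 days of focal adhesion kinase inhibitor (FAKi) with the same cells at the start of the time course rested on 6 of the 27 RNA-seq libraries of the study. Libraries entered by their labels, as the 3 of FAKi day 3 and the 3 of DMSO day 0. These groups were picked for comparison knowing that their replicates lay close together and that those of DMSO day 3 did not, so that the small spread behind the p-values was in part selected. 92.1 is an established human uveal melanoma cell line with an activating *GNAQ* mutation, and it stands here as a single line for the tumour type. The inhibitor was VS-4718 at 100 nM, and the control groups carried the vehicle DMSO. The full series followed both arms through 21 days, and only the day 0 cells served as the common starting point. No label set the FAKi day 3 and DMSO day 0 cells apart other than by agent and day, so that drug and 3 days of culture cannot be told apart in this comparison. DMSO day 3 values are therefore given beside the results. The labels do not say whether replicates were separate cultures, and the methods describe 3 biological replicates, so p-values measure the spread between these samples.

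Focal adhesion kinase, encoded by *PTK2*, is a tyrosine kinase recruited to sites where integrins bind the extracellular matrix. In melanocytes of the eye, activating mutations of the G protein alpha subunit encoded by *GNAQ* or its close relative *GNA11* keep signalling on through phospholipase C beta and, through the exchange factor TRIO, through small GTPases, FAK and the coactivator YAP. The kinase is inhibited at the level of its activity, so that its transcript is no check of the drug.

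Total counts were 12161994 to 18344770 at DMSO day 0 and 13135695 to 19661612 at FAKi day 3, where a level of 1 CPM (counts scaled to a common library size) stood for at least 12 reads. Mitochondrial transcripts took 16.98 to 18.8% of the counts at DMSO day 0 and 16.8 to 18.7% at FAKi day 3. Over 16981 genes, DMSO day 0 libraries lay 0.28 to 0.29 from each other (root mean square difference in log2 CPM), FAKi day 3 libraries 0.29 to 0.33, and libraries of one group lay 0.31 to 0.47 from those of the other. The DMSO day 3 libraries stood 0.47 to 0.81 apart. These spreads were known when the groups were picked, and they are given as a description. Replicate 1 of that group held 18.1% mitochondrial counts, and replicates 2 and 3 held 9.59% and 8.61%.

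All 10 melanocyte markers were expressed, and their summed level was 11130 to 11590 CPM at DMSO day 0 and 13330 to 14070 CPM at FAKi day 3. None of 6 endothelial markers reached the 20 counts over the libraries needed for testing. Of 9 immune markers only 1 was tested, the lysosomal *CD68*, which was at 102 to 113 CPM at DMSO day 0 and 97.7 to 112 CPM at FAKi day 3. The summed fibroblast markers, 3 of 8 tested, were low and moved with the groups (10.8 to 12.5 CPM at DMSO day 0 and 15.5 to 18.1 CPM at FAKi day 3). Only *LUM* passed the test (log2 fold change 0.72, edgeR adjusted p = 0.00294). *COL1A1* had 0.36 and *PDGFRA* had -0.29, and neither passed (edgeR adjusted p = 0.128 and 0.726). The part of these markers in the results was not tested. Among epithelial markers, *KRT18* and *KRT8* passed the test as lower (log2 fold changes -0.66 and -0.73, adjusted p = 0.000186 and 0.0242 in the edgeR quasi-likelihood fit, Benjamini-Hochberg). The other 3 tested did not pass: *BEST1*, by far the most abundant, had -0.07, *CDH1* had 1.16 (0.886 to 1.86 CPM, edgeR adjusted p = 0.0536) and *KRT14* had -0.59. Of 5 neural markers, the synaptic gene *SNAP25* was called higher (0.985 to 2.01 CPM, log2 fold change 1.02, edgeR adjusted p = 0.0423), and the other 4 did not pass. *SNAP25* lay near the thresholds of the call, and it was not followed with libraries left out. In bulk RNA, fewer cells of a type and less RNA per cell cannot be told apart.

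*PTK2* was at 172, 159 and 165 CPM in the DMSO day 0 libraries and at 170, 162 and 167 CPM in the FAKi day 3 libraries. The groups overlapped, and the log2 fold change was 0.01 ± 0.07 (SE, n = 3 per group, adjusted p = 0.94, edgeR quasi-likelihood test). *PTK2B*, which encodes the related kinase PYK2, had a log2 fold change of 0.30 ± 0.13 and *GNAQ* one of 0.16 ± 0.08, and neither passed the test (edgeR adjusted p = 0.150 and 0.206).

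Of 21270 genes tested, 3021 passed an adjusted p of 0.05 (edgeR quasi-likelihood test, Benjamini-Hochberg), 1653 of them higher at FAKi day 3 (7.77%) and 1368 lower (6.43%). Below, genes that passed this test are said to have risen or fallen, and genes that also moved by more than 1 on the log2 scale are said to be called. There were 275 called genes, 167 higher (0.785%) and 108 lower (0.508%). Of the called genes, 194 were protein coding, 60 were long noncoding RNAs and 11 were processed pseudogenes. A mean of at least 5 CPM was reached by 71 of the higher and 25 of the lower genes. The groups did not overlap for 274 of the called genes, against 31% of all genes tested. The count rested on single libraries: it was 429 without FAKi day 3 replicate 1 and 157 without FAKi day 3 replicate 2.

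**Figure D1:**
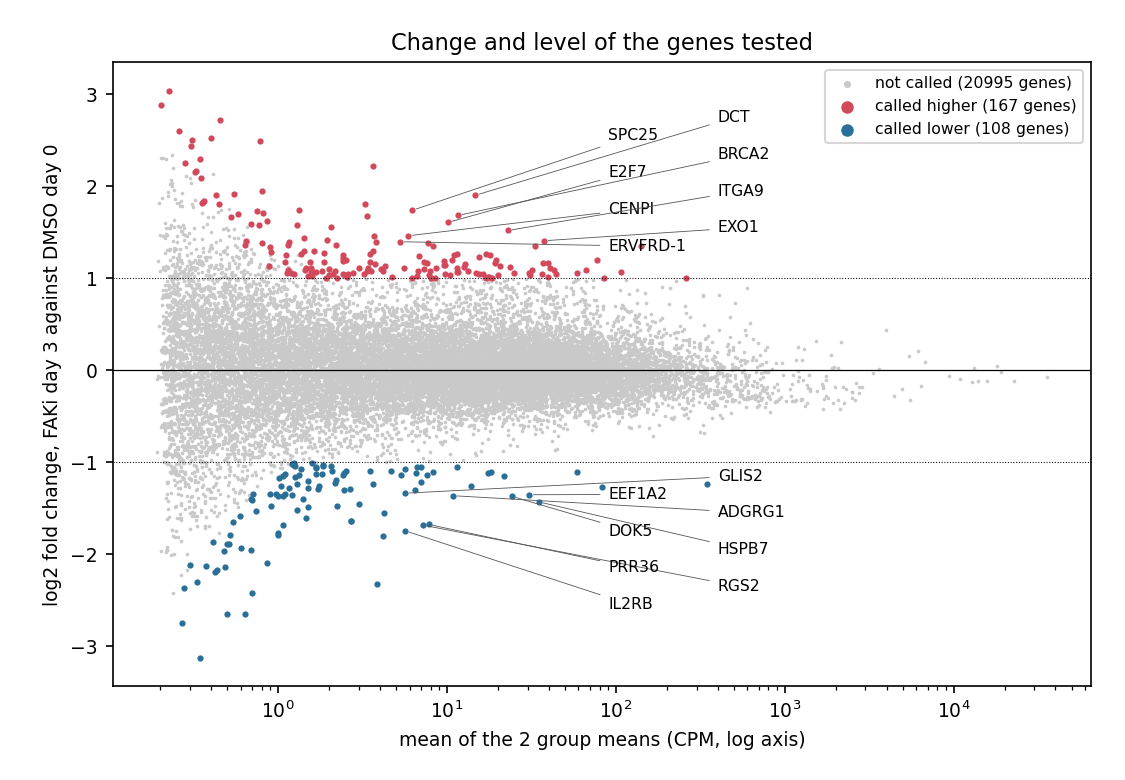
Log2 fold change of the tested genes, FAKi day 3 against DMSO day 0 (vertical axis), against the mean of the DMSO day 0 and FAKi day 3 group means (horizontal axis, CPM, log axis), 1 point per gene. Grey points were not called, and coloured points are the 167 genes called higher and the 108 called lower. Genes with names have the largest changes at a mean of at least 5 CPM and no overlap of the groups.

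Among called genes with a mean of at least 5 CPM, the largest rise was that of *DCT*, the melanin synthesis enzyme dopachrome tautomerase. *DCT* (ENSG00000080166.16, chr13:94436811-94479682, minus strand, hg38) was at 6.55, 5.07 and 6.75 CPM at DMSO day 0 and at 19.3, 23.2 and 27.3 CPM at FAKi day 3. The lowest FAKi library was above every DMSO day 0 library, and the level was 3.74-fold higher (log2 fold change 1.90 ± 0.14, SE, n = 3 per group, adjusted p = 8.60e-09 by edgeR's quasi-likelihood test). At DMSO day 3 the 3 libraries were at 11.3, 4.86 and 2.56 CPM, and none reached the FAKi range.

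*ITGA9* (ENSG00000144668.12, chr3:37452141-37823507, plus strand), an integrin alpha subunit that pairs with beta 1, was at 13.3, 10.99 and 11.3 CPM at DMSO day 0 and at 30.0, 36.3 and 36.1 CPM at FAKi day 3. The groups were well separated, and the log2 fold change was 1.52 ± 0.11 (edgeR adjusted p = 6.71e-09). Annotated antisense transcripts cover 9.71% of its exon bases, and the strand setting of the counting was not given, so that their reads cannot be told apart. *ERVFRD-1*, an endogenous retroviral envelope gene known from the placenta, rose by 1.398 ± 0.194.

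The other 5 genes with the largest rises act in chromosome segregation, DNA repair or cell cycle transcription. *SPC25*, a subunit of the NDC80 complex that ties kinetochores to microtubules, was at 3.11, 2.71 and 2.73 CPM at DMSO day 0 and at 7.73, 10.5 and 10.6 CPM at FAKi day 3 (log2 fold change 1.74 ± 0.18, edgeR adjusted p = 5.39e-07). *BRCA2*, which acts in the repair of broken DNA, was at 5.38, 4.31 and 6.64 CPM at the start and at 16.4, 19.4 and 17.8 CPM with FAKi (1.68 ± 0.14, edgeR adjusted p = 5.41e-08). Both genes were separated between the groups. *E2F7*, an E2F family repressor of S phase genes, rose by 1.61 ± 0.16, *CENPI*, a centromere protein, by 1.46 ± 0.21, and *EXO1*, a DNA repair exonuclease, by 1.41 ± 0.11.

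The 8 genes with the largest falls were *IL2RB*, *RGS2*, *PRR36*, *HSPB7*, *DOK5*, *ADGRG1*, *EEF1A2* and *GLIS2*. *IL2RB* (ENSG00000100385.14, chr22:37125843-37149916, minus strand), the beta subunit of the interleukin 2 and interleukin 15 receptors, was at 7.98, 9.81 and 8.43 CPM at DMSO day 0 and at 2.78, 2.32 and 2.57 CPM at FAKi day 3. Its highest FAKi library was below its lowest day 0 library, and it was 3.36-fold lower (log2 fold change -1.75 ± 0.17, edgeR adjusted p = 3.81e-07). *RGS2* (ENSG00000116741.8, chr1:192809039-192812275, plus strand), a regulator that speeds GTP hydrolysis on Gq alpha subunits, was at 12.5, 9.81 and 10.7 CPM at DMSO day 0 and at 3.47, 3.48 and 3.28 CPM at FAKi day 3. The FAKi libraries were nearly equal, and the log2 fold change was -1.69 ± 0.16 (edgeR adjusted p = 1.70e-07).

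The other 6 genes with the largest falls had log2 fold changes of -1.34 to -1.68. *PRR36*, a proline-rich protein gene, fell by 1.68 ± 0.15, and *HSPB7*, a small heat shock protein, by 1.43 ± 0.10. *DOK5*, a docking protein below receptor tyrosine kinases, was at 34.8 ± 3.16 CPM (SD, n = 3) at DMSO day 0 and at 13.4 ± 0.470 CPM at FAKi day 3. *ADGRG1*, an adhesion G protein-coupled receptor, fell by 1.36 ± 0.13, *EEF1A2*, a translation elongation factor, by 1.35 ± 0.11, and *GLIS2*, a zinc finger transcription factor, by 1.34 ± 0.20. The last of these and *PRR36* share 28.1% and 14.9% of their exon bases with annotated antisense genes. As their choice required, each of these 6 genes was lower in all FAKi day 3 libraries than in any DMSO day 0 library.

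**Figure D2:**
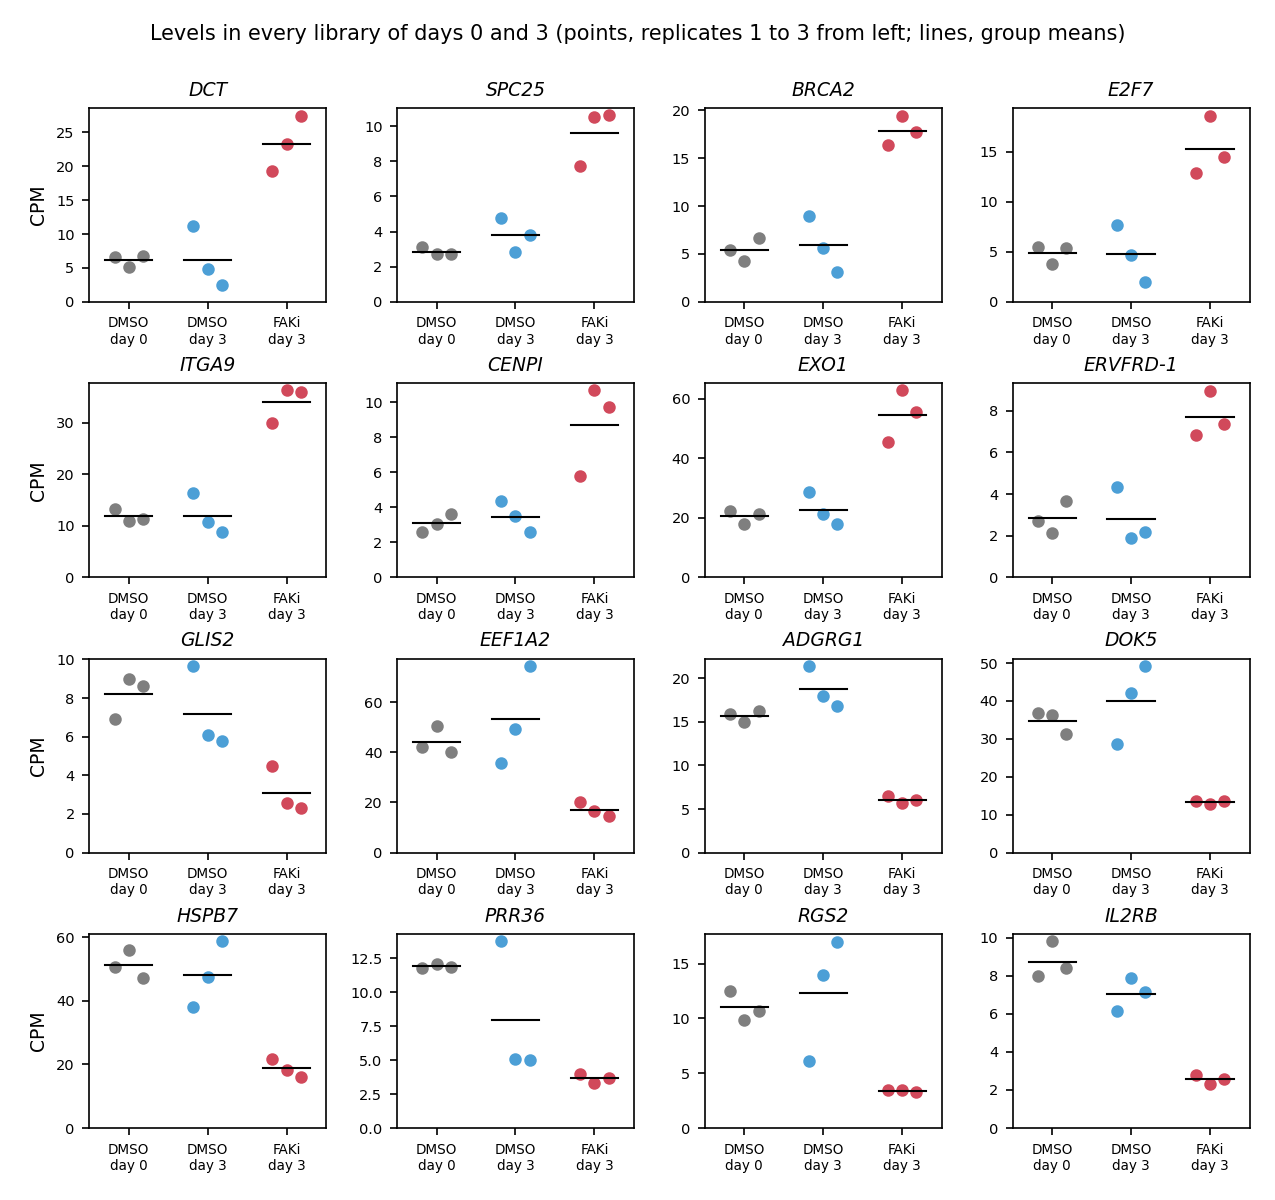
Level (CPM, linear axis from 0) of the 8 genes with the largest rise and the 8 with the largest fall in the 9 libraries of DMSO day 0, DMSO day 3 and FAKi day 3, with 1 point per library and lines at the group means. Genes were chosen for no overlap of FAKi day 3 and DMSO day 0. In each panel the FAKi day 3 points therefore lie beyond all DMSO day 0 points. Examples are *DCT* (19.3 to 27.3 against 5.07 to 6.75 CPM) and *RGS2* (3.28 to 3.48 against 9.81 to 12.5 CPM).

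Nearly all listed cell cycle genes rose. Over all genes tested, 7.77% rose and 6.43% fell, and each list count here and below is to be read beside these shares. In the mitosis list, made of kinetochore, spindle and mitotic kinase genes, 35 of 36 tested members rose and none fell, and the median log2 fold change was 0.76 against 0.00 over all genes tested. In the list for the G1/S transition and DNA replication, 41 of 43 tested members rose and none fell, with a median of 0.69. The sizes were mostly below 1, so that 4 mitosis members and 6 G1/S members were called.

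*MKI67* (ENSG00000148773.14, chr10:128096659-128126423, minus strand), the proliferation marker Ki-67, was at 75.04, 68.6 and 94.9 CPM at DMSO day 0 and at 163 to 247 CPM (mean 203 ± 42.2, SD, n = 3) at FAKi day 3. The groups did not overlap, and the log2 fold change was 1.35 ± 0.12 (edgeR adjusted p = 9.41e-08). At DMSO day 3 it was at 126, 53.2 and 41.2 CPM, with replicate 1 above and the other libraries below the DMSO day 0 range. *KIF11*, the motor that separates spindle poles, was at 28.0, 23.0 and 27.6 CPM and then at 44.8, 60.6 and 54.2 CPM (1.01 ± 0.10). *NDC80*, which names the kinetochore complex, rose by 1.01 ± 0.14 and *ASPM*, a spindle pole protein, by 1.00 ± 0.10. The call of *ASPM* also lay at the threshold, and it was not followed with libraries left out. *KIF11* and *NDC80* stood at the threshold of 1: they passed the adjusted p but not the fold without FAKi day 3 replicate 2 (0.91 and 0.91), without FAKi day 3 replicate 3 (0.99 and 0.88), and without DMSO day 0 replicate 2 (*KIF11*, 0.94) or replicate 1 (*NDC80*, 0.99).

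Among G1/S genes, *CLSPN*, the adaptor of the replication checkpoint kinase CHK1, was at 6.49, 6.26 and 7.48 CPM at DMSO day 0 and at 14.3, 17.2 and 17.4 CPM at FAKi day 3 (log2 fold change 1.26 ± 0.13, edgeR adjusted p = 6.16e-07). *CDC45*, part of the replicative helicase, was at 11.4, 12.4 and 11.6 CPM and then at 21.1, 31.9 and 28.3 CPM (1.20 ± 0.13, edgeR adjusted p = 9.99e-07). Both were separated between the groups. Antisense genes cover 3.29% of the exon bases of *CLSPN* and 1.93% of those of *CDC45*. The helicase subunit *GINS4* rose by 1.16 ± 0.13, with 32.5% of its exon bases shared with antisense genes. *RRM2* of ribonucleotide reductase rose by 1.16 ± 0.12, *GINS1* by 1.04 ± 0.15 and the transcription factor *E2F2* by 1.02 ± 0.17. The calls of *GINS1* and *E2F2* lay near the threshold, and they were not followed with libraries left out.

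The promoters of 6 called cell cycle genes are printed to show where the letters of 3 elements known from cell cycle promoters stand in them, and *CDC45* is an example with CCAAT matches alone. Each runs 5′ to 3′ on the gene's strand from 250 bases before to 50 after an annotated start (RefSeq, GRCh38.p14), and capitals mark matches on either strand to TTTCCCGC (E2F, reverse GCGGGAAA), TTTGAA (the CHR element, reverse TTCAAA) and CCAAT (reverse ATTGG). The windows are chr1:35769929-35770228 on the minus strand for *CLSPN*, chr22:19479576-19479875 on the plus strand for *CDC45*, chr10:128126374-128126673 on the minus strand for *MKI67*, chr10:92592880-92593179 on the plus strand for *KIF11*, chr2:168890381-168890680 on the minus strand for *SPC25*, and chr1:197146620-197146919 on the minus strand for *ASPM*. The *CDC45* window is that of the counted transcript, out of 3 annotated starts. In *MKI67*, 1 base belongs to a CHR match and a CCAAT match.
CLSPN: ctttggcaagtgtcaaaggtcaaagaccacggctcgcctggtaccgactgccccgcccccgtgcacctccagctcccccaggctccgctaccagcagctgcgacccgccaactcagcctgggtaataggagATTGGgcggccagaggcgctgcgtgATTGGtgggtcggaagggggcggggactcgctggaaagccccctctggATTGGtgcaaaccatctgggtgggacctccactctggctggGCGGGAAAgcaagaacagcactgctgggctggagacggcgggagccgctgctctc
CDC45: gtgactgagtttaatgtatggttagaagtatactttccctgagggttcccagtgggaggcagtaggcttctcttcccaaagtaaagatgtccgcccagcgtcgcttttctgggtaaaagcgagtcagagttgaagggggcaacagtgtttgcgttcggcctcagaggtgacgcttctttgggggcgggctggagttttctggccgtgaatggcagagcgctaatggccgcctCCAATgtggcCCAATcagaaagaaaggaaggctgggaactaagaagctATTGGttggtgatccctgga
MKI67: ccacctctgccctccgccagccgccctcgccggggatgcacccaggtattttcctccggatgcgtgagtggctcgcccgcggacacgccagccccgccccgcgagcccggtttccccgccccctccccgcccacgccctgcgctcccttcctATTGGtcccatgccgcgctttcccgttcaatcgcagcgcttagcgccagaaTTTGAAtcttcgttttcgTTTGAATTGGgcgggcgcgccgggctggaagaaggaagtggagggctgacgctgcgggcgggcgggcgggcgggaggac
KIF11: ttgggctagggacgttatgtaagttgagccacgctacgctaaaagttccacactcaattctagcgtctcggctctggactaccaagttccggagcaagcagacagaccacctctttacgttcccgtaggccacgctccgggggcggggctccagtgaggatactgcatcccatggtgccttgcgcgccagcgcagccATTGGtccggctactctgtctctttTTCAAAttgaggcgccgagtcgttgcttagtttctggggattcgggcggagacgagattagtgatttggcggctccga
SPC25: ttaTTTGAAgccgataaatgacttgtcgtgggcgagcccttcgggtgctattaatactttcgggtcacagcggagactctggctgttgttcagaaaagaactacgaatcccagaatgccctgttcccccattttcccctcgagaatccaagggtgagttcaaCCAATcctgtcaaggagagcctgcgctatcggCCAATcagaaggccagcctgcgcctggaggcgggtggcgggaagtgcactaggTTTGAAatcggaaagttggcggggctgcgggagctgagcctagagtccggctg
ASPM: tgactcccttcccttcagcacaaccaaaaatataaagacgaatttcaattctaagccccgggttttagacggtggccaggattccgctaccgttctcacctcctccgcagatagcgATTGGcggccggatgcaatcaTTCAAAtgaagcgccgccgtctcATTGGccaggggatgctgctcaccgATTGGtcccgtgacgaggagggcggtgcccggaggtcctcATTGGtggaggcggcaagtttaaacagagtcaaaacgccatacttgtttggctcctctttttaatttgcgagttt

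The printed windows of *MKI67* and *SPC25* held 2 CHR matches each and those of *KIF11* and *ASPM* 1 each, beside 1 to 4 CCAAT matches. That of *CLSPN* held 1 E2F match and 3 CCAAT matches, and that of *CDC45* 3 CCAAT matches. The CHR letters stood in 70.6% of the 34 promoters matched for the mitosis list, in 4.17% of the 48 for the G1/S list and in 15.2% of all 34796 promoters. The E2F letters stood in 22.9% of the G1/S promoters, 2.94% of the mitosis promoters and 1.63% of all. CCAAT stood in 82.4%, 62.5% and 34.6%. Over the 126 promoters of 95 genes called higher, the shares were 23.0% for CHR, 2.38% for E2F and 51.6% for CCAAT, and over the 76 promoters of 53 genes called lower they were 5.26%, 1.32% and 27.6%. A match of letters does not show that a factor binds there.

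The change of the cell cycle lists was present in every FAKi library. Relative to the DMSO day 0 mean, the median over the mitosis list was 0.57, 0.89 and 0.80 in FAKi day 3 replicates 1 to 3, and lay between -0.15 and 0.08 in the DMSO day 0 libraries. For the G1/S list it was 0.52, 0.87 and 0.70, against -0.03 to 0.02. At DMSO day 3 the mitosis medians were 0.17, -0.10 and -0.21, and the G1/S medians were 0.25, 0.11 and 0.14. All DMSO day 3 libraries were below all FAKi day 3 libraries in both lists.

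**Figure D3:**
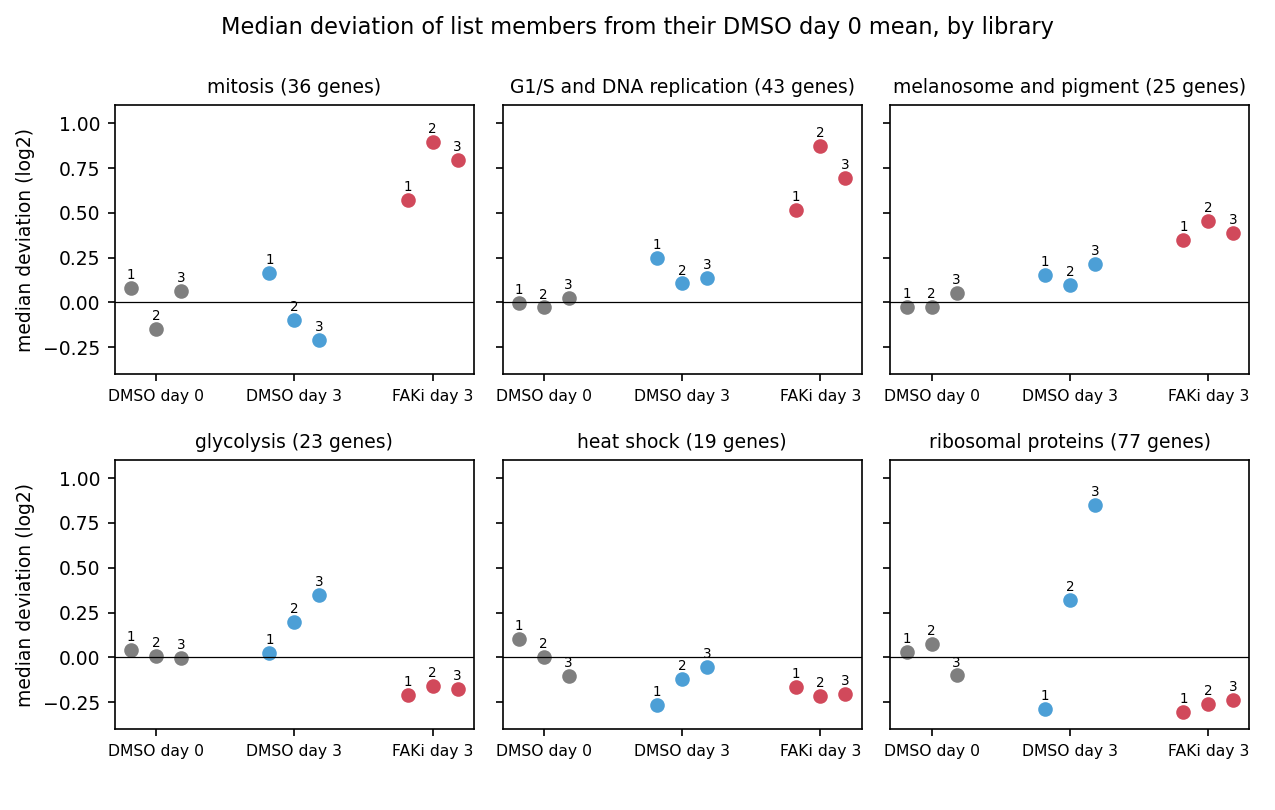
Median deviation of list members from their DMSO day 0 mean (log2, vertical axis) in each library of DMSO day 0, DMSO day 3 and FAKi day 3 for 6 gene lists, 1 point per library with the replicate number beside it. Mitosis and G1/S members sit at 0.52 to 0.89 in FAKi day 3 libraries, and ribosomal protein genes spread from -0.29 to 0.85 in DMSO day 3 libraries.

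Inhibitors of cyclin-dependent kinases and D cyclins did not move as one group: of 9 tested, 4 rose and 4 fell and none was called. The INK4 inhibitors *CDKN2C* and *CDKN2D* rose by 0.98 ± 0.15 and 0.66, *CCND3* by 0.30 and the p27 gene *CDKN1B* by 0.26. *CDKN2B* fell by 0.63, the p57 gene *CDKN1C* by 0.47 and the p21 gene *CDKN1A* by 0.32. *CCND1*, the cyclin D1 gene, was at 345, 326 and 326 CPM at DMSO day 0 and at 276, 292 and 285 CPM at FAKi day 3, a fall of 0.22 ± 0.07 with no overlap (edgeR adjusted p = 0.0352). Its exons share 11.7% of their bases with antisense genes.

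Replication-dependent histone transcripts lack a poly(A) tail and are poorly captured by a poly(A) selection. Of 62 such genes, 23 were tested, 1 rose and 4 fell, with a median of -0.41. Their summed level was 51.69 to 59.45 CPM at DMSO day 0 and 35.83 to 43.86 CPM at FAKi day 3. The called member *H1-4* stayed below 1 CPM in every library, and its call was lost without FAKi day 3 replicate 2 (log2 fold change 2.03, edgeR adjusted p = 0.0959), without FAKi day 3 replicate 3 (1.98, 0.0743), and without DMSO day 0 replicate 1 (2.28, 0.0669), 2 (2.05, 0.104) or 3 (2.16, 0.0781). Near-identical histone copies can share reads. Of 26 tested targets of p53, 3 rose and 4 fell, with a median of 0.01. *DDB2*, a DNA damage sensor, rose by 1.03 ± 0.16 and lost its call but not its adjusted p without DMSO day 0 replicate 1 (0.84) or FAKi day 3 replicate 2 (0.99). *PLK2* and *GDF15* fell by 0.89 and 0.63.

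Many pigment cell genes rose and none fell. In the melanosome and pigment list, 15 of 25 tested members rose, and the median log2 fold change was 0.36. Beside *DCT*, the copper transporter *ATP7A*, which supplies tyrosinase, was called: it was at 19.7, 19.6 and 21.7 CPM at DMSO day 0 and at 34.9, 51.1 and 40.1 CPM at FAKi day 3 (1.04 ± 0.11). Its groups were apart, and without FAKi day 3 replicate 2 the log2 fold change was 0.88 (edgeR adjusted p = 1.90e-05).

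*TYR*, the enzyme tyrosinase, was at 151, 155 and 165 CPM at DMSO day 0 and at 254, 271 and 249 CPM at FAKi day 3, with no overlap (0.72 ± 0.07, edgeR adjusted p = 4.92e-07). At DMSO day 3 it was at 195, 220 and 199 CPM, between the other groups. *RAB27A* and *MYO5A*, which move melanosomes along actin, rose by 0.95 and 0.83, the endothelin receptor *EDNRB* by 0.87, *OCA2* of the melanosome membrane by 0.74 and *PMEL*, which forms the melanosome fibrils, by 0.44. *PMEL* was at 3311 to 3523 CPM at DMSO day 0, 4424 to 4656 CPM at FAKi day 3 and 4289 to 6365 CPM at DMSO day 3, where the last 2 groups overlapped.

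The transcription factors of the lineage moved little, and 2 of 14 tested rose and 1 fell. *MITF*, the lineage regulator, had a log2 fold change of 0.18 ± 0.08 (edgeR adjusted p = 0.111), and *SOX10* and *TFAP2A* had 0.09 and 0.04. None of these 3 passed the test. *SNAI2* and *ETV1* rose by 0.61 and 0.35, and *SOX4* fell by 0.41.

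Genes of the FAK adhesion plaque did not move in one direction. Of 28 tested, 3 rose and 4 fell, beside 7.77% and 6.43% of all genes. None was called, and the median was 0.01. *FLNA*, the actin crosslinker filamin A, was at 460, 494 and 489 CPM at DMSO day 0 and at 382, 347 and 295 CPM at FAKi day 3 (-0.49 ± 0.08, edgeR adjusted p = 0.000238), with no overlap. *FERMT1*, *GIT1* and *ZYX* fell by 0.59, 0.42 and 0.38, and *NEDD9* and *TLN2* rose by 0.59 each and *LIMS1* by 0.36. *ACTN4*, with 17.4% of its exon bases shared with antisense genes, had a log2 fold change of -0.18 that did not pass (edgeR adjusted p = 0.105).

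Among integrin subunits, 3 of 15 tested rose and 1 fell, beside 7.77% and 6.43% of all genes. Beside *ITGA9*, the fibronectin and vitronectin receptor subunits *ITGAV* and *ITGB1* rose by 0.43 and 0.25. *ITGA3*, a laminin receptor subunit, went from a mean of 41.2 CPM to 25.3 CPM, a fall of 0.69. Of 31 matrix genes tested, 9 rose and 3 fell, beside the same shares of all genes. *CEMIP*, which takes part in hyaluronan breakdown, was at 0.584, 0.254 and 0.893 CPM at DMSO day 0 and at 1.93, 1.86 and 2.43 CPM at FAKi day 3, and *HAS2*, a hyaluronan synthase, was at 0.519, 0.846 and 0.558 CPM and then at 1.29, 2.09 and 1.57 CPM. Both were low and separated between groups (log2 fold changes 1.75 ± 0.36 and 1.37 ± 0.36), with 2.76% and 5.92% of their exon bases covered by antisense genes. The call of *HAS2* was lost without DMSO day 0 replicate 1 (1.25, edgeR adjusted p = 0.0545) or FAKi day 3 replicate 2 (1.17, 0.0798).

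Among laminin chains, *LAMA3* rose by 1.20 ± 0.26 and its partner *LAMB3* fell by 1.01 ± 0.33, both from means of under 3 CPM. *LAMB3* passed no threshold with DMSO day 0 replicate 1 or 2 left out (-0.97 and -0.93, edgeR adjusted p = 0.115 and 0.169), nor with FAKi day 3 replicate 2 or 3 left out (-0.80 and -0.82, edgeR adjusted p = 0.176 and 0.107). *SPARC*, *LAMA1* and *FN1*, of the matrix and basement membrane, rose by 0.55, 0.52 and 0.41, and *COL6A1* and *LAMB1* fell by 0.37 and 0.30.

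Of 20 tested targets of YAP and TAZ, 1 rose and 3 fell, beside 7.77% and 6.43% of all genes. None was called, and the median was 0.05. *ASAP1*, an Arf GTPase-activating protein, went from 210 ± 9.79 CPM to 282 ± 24.6 CPM (SD, n = 3). *FJX1*, *ARHGEF17* and *CRIM1* fell by 0.46, 0.43 and 0.42. *AMOTL2*, a YAP-binding scaffold and target, was at 98.6 and 87.3 CPM on average, and its log2 fold change of -0.17 ± 0.08 did not pass (edgeR adjusted p = 0.153).

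**Figure D4:**
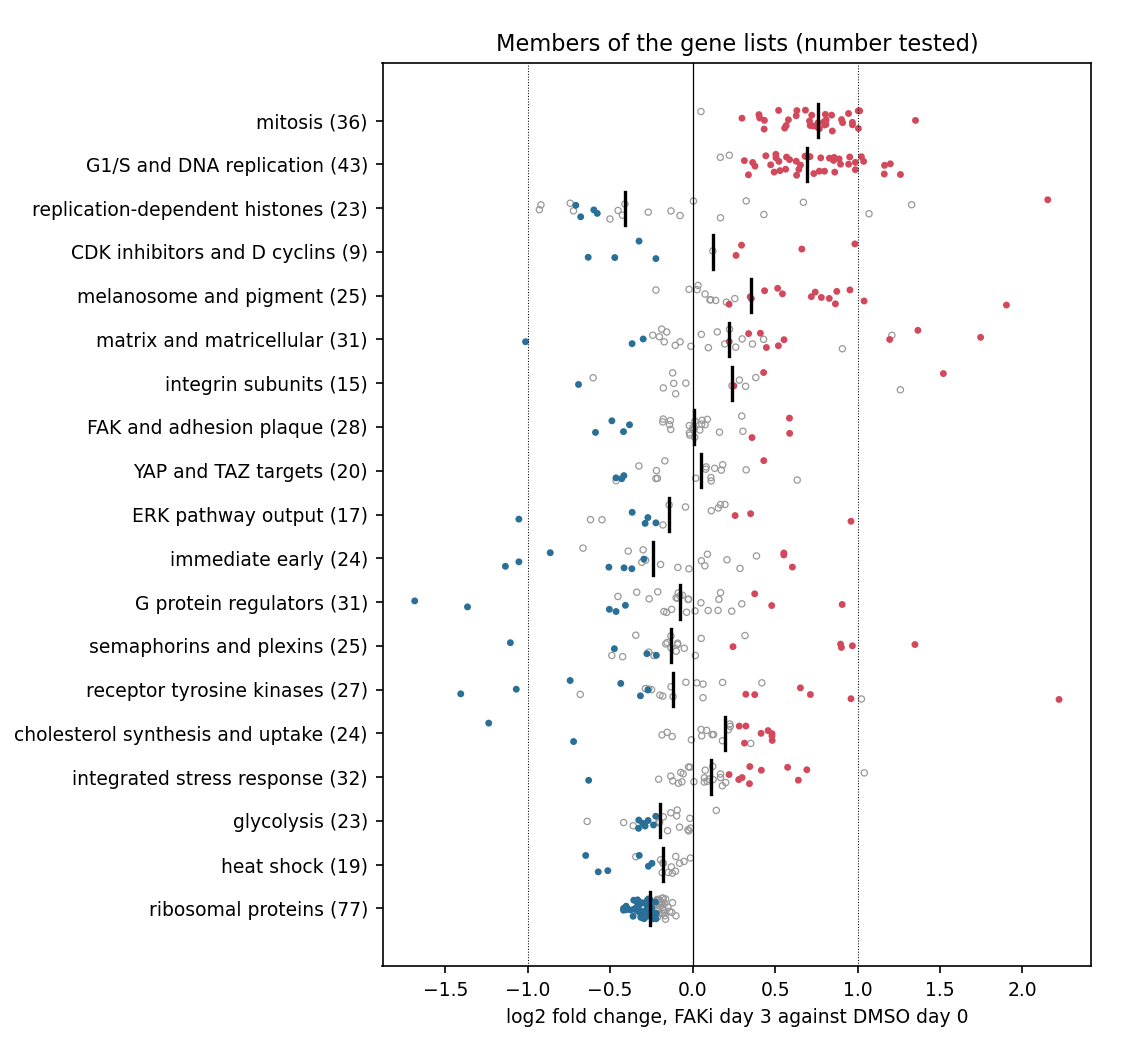
Log2 fold change of each tested member of the gene lists, FAKi day 3 against DMSO day 0 (horizontal axis), 1 row per list, with members that passed an adjusted p of 0.05 in colour and a bar at the list's median. The mitosis and G1/S lists lie to the right (medians 0.76 and 0.69) and the ribosomal protein list is narrow and to the left (median -0.26).

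Of 17 tested transcripts induced by ERK signalling, 5 fell and 3 rose, with a median of -0.14. *SPRY1*, a feedback inhibitor of receptor signalling, was at 15.8, 16.6 and 14.0 CPM at DMSO day 0 and at 7.48, 7.35 and 7.28 CPM at FAKi day 3 (-1.05 ± 0.12, edgeR adjusted p = 2.84e-06), with no overlap. *SPRY4* went from 159 to 123 CPM (-0.37), and *ETV4* and *EPHA2* fell by 0.29 and 0.27. *EPHA4*, *ETV1* and *PHLDA1* rose by 0.96, 0.35 and 0.26.

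Immediate early genes, which respond within minutes to growth factors and stress, held 7 that fell and 3 that rose among 24 tested, with a median of -0.24. *EGR3* and *FOSL2* were called lower (-1.14 ± 0.26 and -1.05 ± 0.17), *FOSB* fell by 0.86, *NR4A1* by 0.51, *JUNB* by 0.37 and *MYC* by 0.30. *ATF3*, *KLF6* and *IER5* rose by 0.61, 0.55 and 0.55. *FOSL2* lost its call but not its adjusted p without FAKi day 3 replicate 2 (-0.99) or 3 (-0.93) or DMSO day 0 replicate 2 (-0.99), and *EGR3* without FAKi day 3 replicate 3 (-0.91).

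Among G protein regulators, 5 of 31 tested fell and 3 rose, with *RGS2* and *ADGRG1* called lower. *RGS10*, *RGS16* and the diacylglycerol kinase *DGKA* fell by 0.50, 0.46 and 0.41. *DGKI*, another diacylglycerol kinase, went from 50.9 to 95.8 CPM (0.91), and *PLCB4*, the phospholipase C beta that acts below Gq in eye melanocytes, rose by 0.48.

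Semaphorins and plexins, ligands and receptors of axon guidance, rose in 5 and fell in 4 of 25 tested members. *SEMA6D* was at 3.83, 4.48 and 5.52 CPM at DMSO day 0 and at 11.1, 12.5 and 11.99 CPM at FAKi day 3 (1.35 ± 0.15, edgeR adjusted p = 1.64e-06), and *SEMA6B* at 11.2, 11.7 and 10.9 CPM and then at 5.55, 4.33 and 5.64 CPM (-1.11 ± 0.14, edgeR adjusted p = 9.43e-06). These transmembrane semaphorins of one class moved in opposite directions, each without overlap. *SEMA6A* went from 418 to 776 CPM (0.90) and *PLXNC1* from 44.9 to 88.02 CPM (0.97). The study first came to semaphorins and plexins through mutations in *CYSLTR2* mutant tumours. It then reported changes of these genes from comparisons that include the FAKi day 3 libraries, so that their direction here is not independent evidence.

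Receptor tyrosine kinases rose in 6 and fell in 6 of 27 tested members. *NTRK2*, the BDNF receptor TrkB, was at 1.62, 0.677 and 1.395 CPM at DMSO day 0 and at 5.15, 7.04 and 5.85 CPM at FAKi day 3, 4.67-fold higher and without overlap (2.22 ± 0.24, edgeR adjusted p = 1.29e-06).

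*ALK* was called lower (-1.07 ± 0.21) and did not keep the fold without DMSO day 0 replicate 2 (-0.96) or FAKi day 3 replicate 2 (-0.94) or 3 (-0.90). *EPHA4*, *FGFR2* and *MET*, the HGF receptor, rose by 0.96, 0.71 and 0.32, and *FGFR3*, *FGFR4* and *ERBB3* fell by 0.74, 0.44 and 0.32. In the list for TGF-beta, BMP and ID genes, 5 of 27 tested rose and 2 fell. The inhibitor of bHLH factors *ID2* rose by 0.96, *BAMBI*, a decoy receptor, by 0.66 ± 0.09 and *ID4* by 0.54 ± 0.09, and *PMEPA1* and *TGFB1* fell by 0.76 and 0.41.

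Of 24 cholesterol genes tested, 8 rose and 2 fell, beside 7.77% and 6.43% of all genes. A positive log2 fold change was seen in 18, and the median was 0.20, while the only called member fell. *SQLE* (ENSG00000104549.12, chr8:124998505-125022283, plus strand), squalene epoxidase and a rate-limiting step, was at 510, 502 and 449 CPM at DMSO day 0 and at 240, 185 and 193 CPM at FAKi day 3, 2.36-fold lower and without overlap (-1.24 ± 0.09, edgeR adjusted p = 6.71e-09). The isoprenoid enzymes *IDI1* and *FDPS* rose by 0.46 and 0.28, *HMGCS1*, an early enzyme of the pathway, by 0.48, and *TM7SF2* fell by 0.72. In fatty acid synthesis, 1 of 13 rose (*GPAM*, 0.62) and 1 fell (*SREBF1*, 0.34 lower on the log2 scale), and *SCD* and *FASN* had log2 fold changes of 0.03 and -0.14 that did not pass. Of the 9 thioredoxin-interacting and glucose sensing genes, *PDK4*, which restrains pyruvate entry into mitochondria, and *ARRDC3* were called higher (1.20 ± 0.24 and 1.06 ± 0.25). *ARRDC3* was below the fold without DMSO day 0 replicate 2 or FAKi day 3 replicate 2 (0.90 and 0.91).

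Genes of glycolysis, heat shock proteins and ribosomal proteins lay slightly lower as groups. In glycolysis, 7 of 23 tested fell and none rose, and 22 had a negative log2 fold change (median -0.20). *GAPDH* was at 2238, 2315 and 2316 CPM at DMSO day 0 and at 1806, 1815 and 1837 CPM at FAKi day 3 (-0.33 ± 0.07, edgeR adjusted p = 0.00216), and 32.8% of its exon bases are shared with antisense genes. *ENO1*, *PFKM* and *LDHB* fell by 0.30, 0.33 and 0.29, and 64.6% of the exon bases of *LDHB* overlap another gene on the same strand. Of 19 heat shock genes, 6 fell and all 19 had a negative value (median -0.18). *HSPA1B*, *CRYAB* and *HSPA8* fell by 0.65, 0.57 and 0.32, and *HSP90AA1* had -0.10 ± 0.08, which did not pass.

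All 77 ribosomal protein genes had a negative log2 fold change, from -0.42 to -0.10, with a median of -0.26. Of these, 45 fell and none was called. *RPS3* was at 3126, 3095 and 2790 CPM at DMSO day 0 and at 2449, 2443 and 2685 CPM at FAKi day 3 (-0.25 ± 0.08, edgeR adjusted p = 0.0296). The ranges lay close together without overlap, and many ribosomal protein genes have pseudogene copies that can share reads. At DMSO day 3 the list's median deviation was -0.29, 0.32 and 0.85 in replicates 1, 2 and 3, a wider span than the change in FAKi libraries (-0.30, -0.26 and -0.24), and replicate 1 lay within the FAKi range.

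Short and long transcripts differed between the groups, which bears on these lists. The median log2 fold change was -0.06 in the shortest tercile of genes, -0.02 in the middle tercile and 0.07 in the longest tercile, with a rank correlation of 0.20 between change and length over 16901 genes. The trend was steeper with the DMSO day 3 libraries: the medians from shortest to longest were 0.13, 0.03 and -0.13 for DMSO day 3 against DMSO day 0, and -0.19, -0.05 and 0.19 for FAKi day 3 against DMSO day 3. With each library corrected for transcript length the medians were 0.74 for mitosis, 0.69 for G1/S, 0.35 for melanosome genes, -0.23 for ribosomal proteins, -0.19 for glycolysis and -0.17 for heat shock genes. All 6 lists kept their direction.

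For the lists that follow, the shares over all genes were again 7.77% risen and 6.43% fallen. Of 32 tested genes of the integrated stress response, 9 rose and 1 fell, with a median of 0.11. *SESN2*, *SLC7A11*, *CHAC1* and *CTH* rose by 0.69, 0.64, 0.58 and 0.42, and *GDF15* was the member that fell. *ATF4*, the factor that drives the list, was at 1148 and 1100 CPM on average (-0.06 ± 0.07, edgeR adjusted p = 0.68). None of 22 endoplasmic reticulum chaperones and none of 13 genes of the mitochondrial chromosome passed the test (medians -0.05 and -0.08). In antigen presentation, 1 of 19 rose (*B2M*, 0.31) and 3 fell. Of 30 interferon-stimulated genes 4 rose, among them *STAT2* (0.26), and of 20 hypoxia genes 2 rose, with *VEGFA* at -0.11. Among 34 lysosome and autophagy genes, 6 rose, among them *CTSL*, a lysosomal protease (0.89), and 2 fell, among them *PSAP* (0.31 lower).

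The DMSO arm gave the change over the same 3 days without drug. DMSO day 3 against DMSO day 0, which shares the day 0 libraries, gave no called gene among 22728 tested (0%, edgeR quasi-likelihood test), with 2242 genes at an unadjusted p under 0.05 and 35 genes called by DESeq2. That 0 rested on 1 library: without DMSO day 3 replicate 1 there were 1439 called genes, 917 of them higher. The count of 0 therefore does not show that DMSO cells stayed the same. The list medians in this comparison were -0.10 for mitosis, 0.19 for G1/S, 0.09 for melanosome genes, 0.21 for glycolysis and 0.33 for ribosomal proteins.

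A fit of the 3 groups tested FAKi day 3 against DMSO day 3, the difference between the 3-day changes of both arms, and shares the FAKi day 3 libraries with the comparison above. Of 23631 genes, 779 were called, 234 higher (0.99%) and 545 lower (2.31%). The list medians were 0.74 for mitosis, 0.52 for G1/S, 0.26 for melanosome genes, -0.45 for glycolysis and -0.63 for ribosomal proteins. The length trend of this contrast runs beside them (-0.19 in the shortest tercile), with a median transcript length of 1190 bases for ribosomal proteins and 3365 for glycolysis, and its part was not tested. For *MKI67* the log2 difference was 1.47, for *DCT* 1.88, for *ITGA9* 1.503 and for *RGS2* -1.84, and all passed. For *TYR* it was 0.33 and for *PMEL* -0.26, and neither passed (edgeR adjusted p = 0.0779 and 0.298). The count of 779 was 2957 without DMSO day 3 replicate 1, 25 without DMSO day 3 replicate 2 and 254 without DMSO day 3 replicate 3. It was 202, 5 and 4 without FAKi day 3 replicates 1, 2 and 3, and 381, 390 and 434 without DMSO day 0 replicates 1, 2 and 3.

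The later days hold libraries that took no part in choosing the called genes. Of the genes called higher at day 3, 150 of 165 tested (90.9%) were higher in FAKi than in DMSO at day 7, 138 of 165 (83.6%) at day 14 and 98 of 162 (60.5%) at day 21, against 51.4%, 50.2% and 51.0% of all genes. Of those called lower, 102 of 108 (94.4%), 78 of 105 (74.3%) and 84 of 108 (77.8%) were lower, against 48.6%, 49.8% and 49.0%. These shares describe genes that are not independent of each other, and they carry no test. Libraries of FAKi day 7 stood 0.42 to 0.74 apart and those of DMSO day 21 0.32 to 0.77, wider than the groups of day 0 and FAKi day 3.

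The list medians at later days compare FAKi with DMSO of the same day, a different contrast from that with day 0, and no difference between lists was tested. The mitosis median was 0.04 at day 7, 0.30 at day 14 and -0.61 at day 21, and the G1/S median was 0.57, 0.73 and -0.41. Melanosome genes had 0.41, 0.17 and 0.34, and ribosomal proteins -0.08, -0.28 and -0.66. *ITGA9* had log2 differences of 1.45, 1.23 and 1.42 at the later days, *NTRK2* 1.46, 1.13 and 0.73, *IL2RB* -1.17, -2.07 and -2.54 and *RGS2* -1.27, -1.66 and -2.15. *SPC25* had 0.47, 0.71 and -1.20, and *SQLE* -0.10, 0.66 and -0.75.

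**Figure D5:**
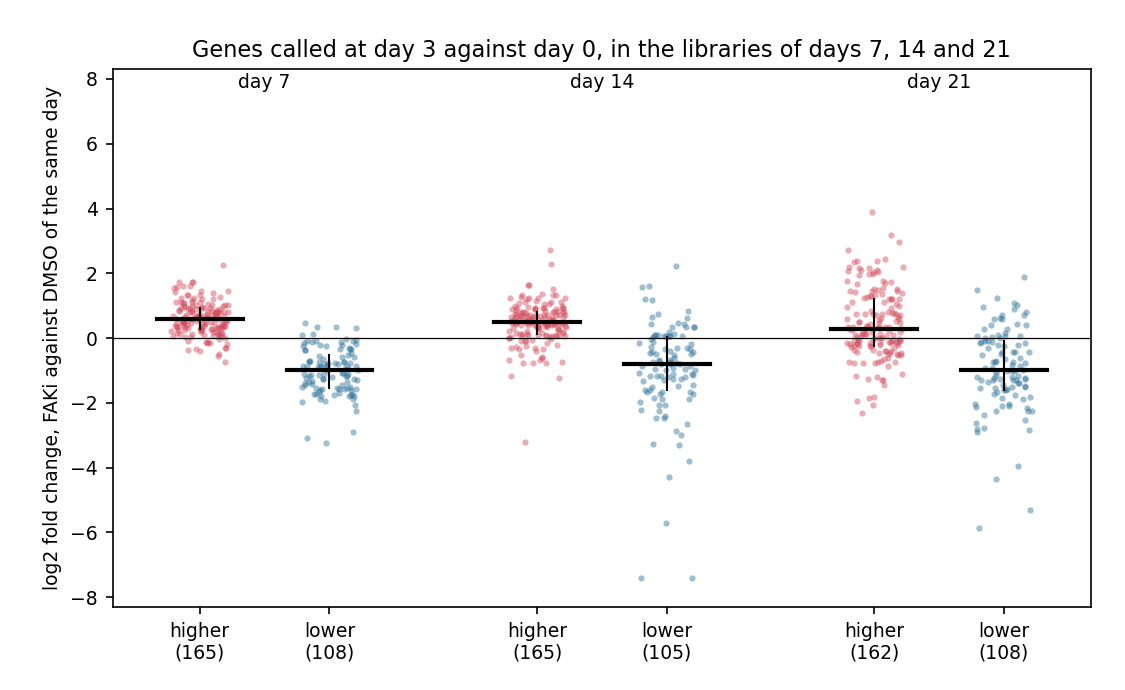
Log2 fold change of FAKi over DMSO (vertical axis) at day 7, day 14 and day 21 for the genes called higher and the genes called lower at FAKi day 3 against DMSO day 0, 1 point per gene, with thick lines at medians and thin lines over the quartiles. Higher genes lie mostly above 0 at day 7 (90.9%) and less so at day 21 (60.5%), and lower genes lie mostly below 0 at each day.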

How the data were processed

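RNA was sequenced from 27 libraries, and the 9 of DMSO day 0, DMSO day 3 and FAKi day 3 carry the comparisons. The authors trimmed reads with Trim Galore, checked them with FastQC 0.11.8, aligned them to hg38 with STAR 2.5.3a and counted them with HOMER over the exons of 1 transcript per gene (GENCODE). The deposited values are raw counts, not normalized, for 61533 genes, of which 17687 had no count. The strand setting and the handling of reads with several matches were not given in the sources used here.

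Counts were scaled by TMM and tested with edgeR 4.0.16 (quasi-likelihood, R 4.3.3) in the 6 libraries, keeping genes with at least 20 counts in all, with Benjamini-Hochberg adjustment over all genes tested. Called genes had an adjusted p no higher than 0.05 together with a log2 fold change beyond 1 in either direction. CPM levels were scaled over the 9 libraries. FAKi was compared with DMSO at day 3 in a fit of 3 groups and at days 7, 14 and 21 within each day. The test was checked on simulated counts.

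Genes named in the text were the 8 called genes with the largest rise and the 8 with the largest fall at a mean of at least 5 CPM and no overlap of the groups, up to 3 called members of each list in each direction (or, where none was called, the 2 with the highest level), *PTK2*, *PTK2B*, *GNAQ* and the melanocyte markers. Some genes that the rule named are not reported here. Other list members are named as examples, and these were chosen after their values were seen. The comparison and the lists were chosen with earlier results of these data known.

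Same-numbered libraries of DMSO day 0 and FAKi day 3 did not deviate together (r = -0.18, -0.02 and -0.17), so the main test had no pairing. No pair of replicates agreed within sampling noise. The chi-square per degree of freedom was 3.04 to 8.21 within DMSO day 0 and FAKi day 3. Within DMSO day 3 it was 40.05, 128.2 and 226.2. Alternatives were other scalings in edgeR (RLE, upper quartile), filters, DESeq2 1.42.0, all 27 libraries in 1 fit, a replicate block and other thresholds. Further alternatives were mitochondrial genes left out, thinning to equal depth, correction for transcript length, and each library left out in turn. The correction for length with GC content, and that for length with the adjusted p alone, were chosen after seeing the data.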

Additional observations from a re-analysis of the deposited data

Results flagged for a closer look

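For 29 of the 82 named genes the change from day 0 to day 3 differed between FAKi and DMSO, tested as the difference between the day 3 groups in the fit of 3 groups (edgeR quasi-likelihood test, adjusted p of at most 0.05 and a log2 difference over 1). Over all 23631 genes of that fit, 0.99% were called higher and 2.31% lower. Of the 82 named genes, 40 were called in FAKi day 3 against DMSO day 0, since the naming rule favoured called genes. All 29 are among these 40, and both comparisons use the same FAKi day 3 libraries. The share of 29 in 82 therefore reflects how the genes were named. The differences are on the log2 scale, FAKi minus DMSO.

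Of the 19 genes that were higher, the cell cycle and DNA repair genes had differences of 1.32 (*SPC25*), 1.58 (*BRCA2*), 1.64 (*E2F7*), 1.31 (*CENPI*), 1.28 (*EXO1*), 1.47 (*MKI67*), 1.46 (*CLSPN*), 1.00 (*CDC45*) and 1.29 (*KIF11*). Pigment cell genes had 1.88 (*DCT*) and 1.35 (*ATP7A*). Matrix and adhesion genes had 1.77 (*CEMIP*), 1.503 (*ITGA9*), 1.65 (*HAS2*) and 1.32 (*LAMA3*). The receptor *NTRK2* had 2.00, *SEMA6D* 1.18, *ARRDC3* 1.22 and the retroviral envelope *ERVFRD-1* 1.43.

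Of the 10 genes that were lower, the signalling genes had differences of -1.84 (*RGS2*), -1.63 (*ADGRG1*), -1.58 (*DOK5*), -1.45 (*IL2RB*) and -1.40 (*SEMA6B*). The others had -1.63 (*EEF1A2*), -1.36 (*HSPB7*), -1.34 (*LAMB3*), -1.19 (*GLIS2*) and -1.04 (*SQLE*).

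These calls use the DMSO day 3 libraries, of which replicate 1 held 18.1% mitochondrial counts and the others 9.59% and 8.61%. With 1 library left out, the number of genes called in that fit ranged from 4 to 2957. The lowest count was without FAKi day 3 replicate 3 and the highest without DMSO day 3 replicate 1. What makes the count depend on single libraries was not tested.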

How the results depend on the processing

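FAKi day 3 against DMSO day 0 gave 275 called genes, 60.7% of them higher. The count was 168 (71.4% higher) with at least 10 counts in every library, 57 with all 27 libraries in 1 fit, 173 at an adjusted p of 0.01, 3021 by adjusted p alone (54.7% higher) and 2951 by adjusted p alone with the length correction (47.3% higher), and 157 to 429 with 1 library left out. With other scalings, no filter or filterByExpr, DESeq2, no mitochondrial genes, thinning and the length and GC corrections it was 185 to 293. The replicate block gave 222, and 0 and 569 in the other comparisons; the replicate numbers did not pair these samples. DMSO day 3 against DMSO day 0 gave 0, but 459 with no filter, 35 by DESeq2, 112 with all 27 libraries in 1 fit and 0 to 1439 with 1 library left out. FAKi day 3 against DMSO day 3 gave 779, but 1287 with no filter, 2285 by adjusted p alone, 11 at an adjusted p of 0.01 and 4 to 2957 with 1 library left out.

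Later-day shares moved most with at least 10 counts in every library (higher genes 95.8%, 89.1% and 51.5% at days 7, 14 and 21, lower genes 100% and 88.1% at days 7 and 21) and with DESeq2 (lower genes 100% and 86.9% at days 7 and 21). Leaving out libraries was not run for these shares. The cause of these shifts was not tested.

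Of 40 named called genes, 18 kept their call under every alternative that tested them, 9 lost it only with all 27 libraries in 1 fit, and 12 lost it with at least 1 library left out. No called gene reversed. Depth limits genes of low level, since 1 CPM stood for as few as 12 reads in a library. With 3 libraries a group, an exact permutation test of 3 against 3 cannot go below p = 0.1.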

Other observations

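Genes of homologous recombination and of the cell cycle transcription factors stood among the called genes outside the naming rule; these were picked with their values in view. *BRCA1* had a log2 fold change of 1.16 ± 0.11 (24.2 to 54.6 CPM on average), *BRIP1* one of 1.25 ± 0.14 and the helicase gene *BLM* 1.11 ± 0.18 (FAKi day 3 against DMSO day 0, edgeR quasi-likelihood test). The factors of mitotic transcription *MYBL2*, *MYBL1* and *FOXM1* had 1.20, 1.23 and 1.05. The call of *FOXM1* lay near the threshold, and it was not followed with libraries left out.

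Other abundant called genes were *IDH1* and the homeobox gene *HLX*. *IDH1*, the cytosolic NADP-dependent isocitrate dehydrogenase, went from 172 to 345 CPM (1.00 ± 0.09). The call of *IDH1* lay at the threshold, and it was not followed with libraries left out. *HLX* went from 117 to 48.2 CPM (-1.27 ± 0.08, edgeR adjusted p = 1.23e-09). *SYNE2*, which links the nucleus to the cytoskeleton, rose by 1.36 ± 0.14, and *CYFIP2* and the histone deacetylase *HDAC9* fell by 1.26 and 1.12.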
